A study of Mus musculus with 27 samples.

Results

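The Pax, Nkx, Lhx, Dlx and Irx genes and the Six4 family encode families of homeodomain or paired-domain transcription factors that pattern the embryo after gastrulation. Pax6, Nkx6-1 and Nkx2-2 divide the neural tube and the pancreas into cell types, Nkx2-5 marks the early heart, Six2 acts in the kidney, and the Irx and Dlx genes lie in clusters that pattern the nervous system, limb and face. In pluripotent cells many promoters of such genes carry H3K4me3, a mark of open promoters, together with H3K27me3, which the Polycomb complex lays down and which goes with a silent gene. A promoter with both marks is called bivalent. A bivalent gene at 1 FPKM or more in the fPSCs P10 library is said here to leak.

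The 48 genes were chosen by symbol alone, as the rows for Pax1 to Pax9, every Nkx gene, Lhx2 to Lhx9, every gene of the Six4 family, Dlx1 to Dlx6 and Irx1 to Irx6 in a table of 23604 genes. They comprise 9 Pax, 14 Nkx, 7 Lhx, 6 Dlx and 6 Irx genes and 6 genes of the Six4 family. Their RNA was followed in 19 bulk libraries, and their promoters in 1 file each of H3K4me3, H3K27me3 and DNA methylation from fPSCs P10.

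All are mouse stem cells, which the labels give as genotype WT, although by the study's text 46C carries a Sox1-GFP and BVSC a Blimp1-Stella reporter, and ROSAmTmG is named for its membrane reporter. The mESCs (2 libraries) were grown without feeders in N2B27 with the inhibitors PD035901 and Chir99021 and LIF. The EpiLCs (2 libraries) and the Epiblastoids in Matrigel (days 2, 3 and 4, 1 library each) were grown with KSR, Activin A and bFgf2. The EpiSCs (2 libraries) were grown on inactivated mouse embryonic fibroblasts with more KSR, Activin A, bFgf2 and XAV939, a blocker of Wnt signalling. Formative pluripotent stem cells (fPSCs) are Epiblastoids stabilized in Activin A, bFgf2 and XAV939. They were sampled at the first passage (P1, 1 library), after long culture (7 libraries: P10, P20, P30, CMT P11, 46C P24, BVSC P14 and ROSAmTmG P12) and as lines from E5.5 and E6.5 epiblasts (P10, 1 library each). By the study's text P1, P10, P20 and P30 are passages of the CMT line and CMT P11 was cryopreserved, so that 4 of the 7 long-term libraries come from 1 parental line, while 46C, BVSC and ROSAmTmG are other parental mESC lines. Libraries P10, P20 and P30 were made by the protocol of the mESC, EpiLC and EpiSC libraries, and the other 4 long-term libraries by a different kit. Nothing in the labels says that replicates of a group were separate cultures, so p-values measure the spread between these libraries. RNA values are FPKM, which divide a gene's fragments by its length and by the depth of the library, so that levels of different genes can be set side by side. Between 10034 and 10933 genes reached 1 FPKM in a library, 42.5% to 46.3% of the table. The state of the cells was checked on marker genes. Zfp42, a marker of the naive state, was at 347 and 384 FPKM in mESCs and at most 11.3 elsewhere. Fgf5, a formative gene, was at 0.0558 and 0.0191 FPKM in mESCs and between 72.9 and 109 in the 7 long-term fPSC libraries.

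Most of the 48 genes were silent. A gene was called silent when it stayed under 1 FPKM in all 19 libraries, which held for 29 of the 48 (60.4%), against 43.9% of all genes and 38 of 69 other homeobox genes (55.1%). Of the other 19, 18 were at 1 FPKM or more in some libraries and 1, Six4, in all 19. By family, 7 of 9 Pax, 8 of 14 Nkx, 6 of 7 Lhx, 4 of 6 Dlx and 2 of 6 Irx genes were silent, as were 2 genes of the Six4 family. Pax6, which specifies eye and forebrain, did not exceed 0.295 FPKM, its value in EpiSCs replicate 1. The highest values of other silent genes were 0.0975 FPKM for Pax3, of the dorsal neural tube and somites, 0.0802 for Nkx2-1, of thyroid, lung and ventral forebrain, 0.415 for Lhx5 and 0.623 for Six3, of the anterior forebrain. Nkx2-4 reached 0.849 FPKM and Nkx2-5 0.640, both in mESCs replicate 1. The number of the 48 genes at 1 FPKM or more was highest in EpiSCs, with 16 and 15. It was 8 and 8 in mESCs, 4 and 7 in EpiLCs, 7, 6 and 8 in Epiblastoids on days 2, 3 and 4, 5 in fPSCs P1, 3 to 6 in the 7 long-term fPSC libraries and 5 in each epiblast-derived line.

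**Figure D1:**
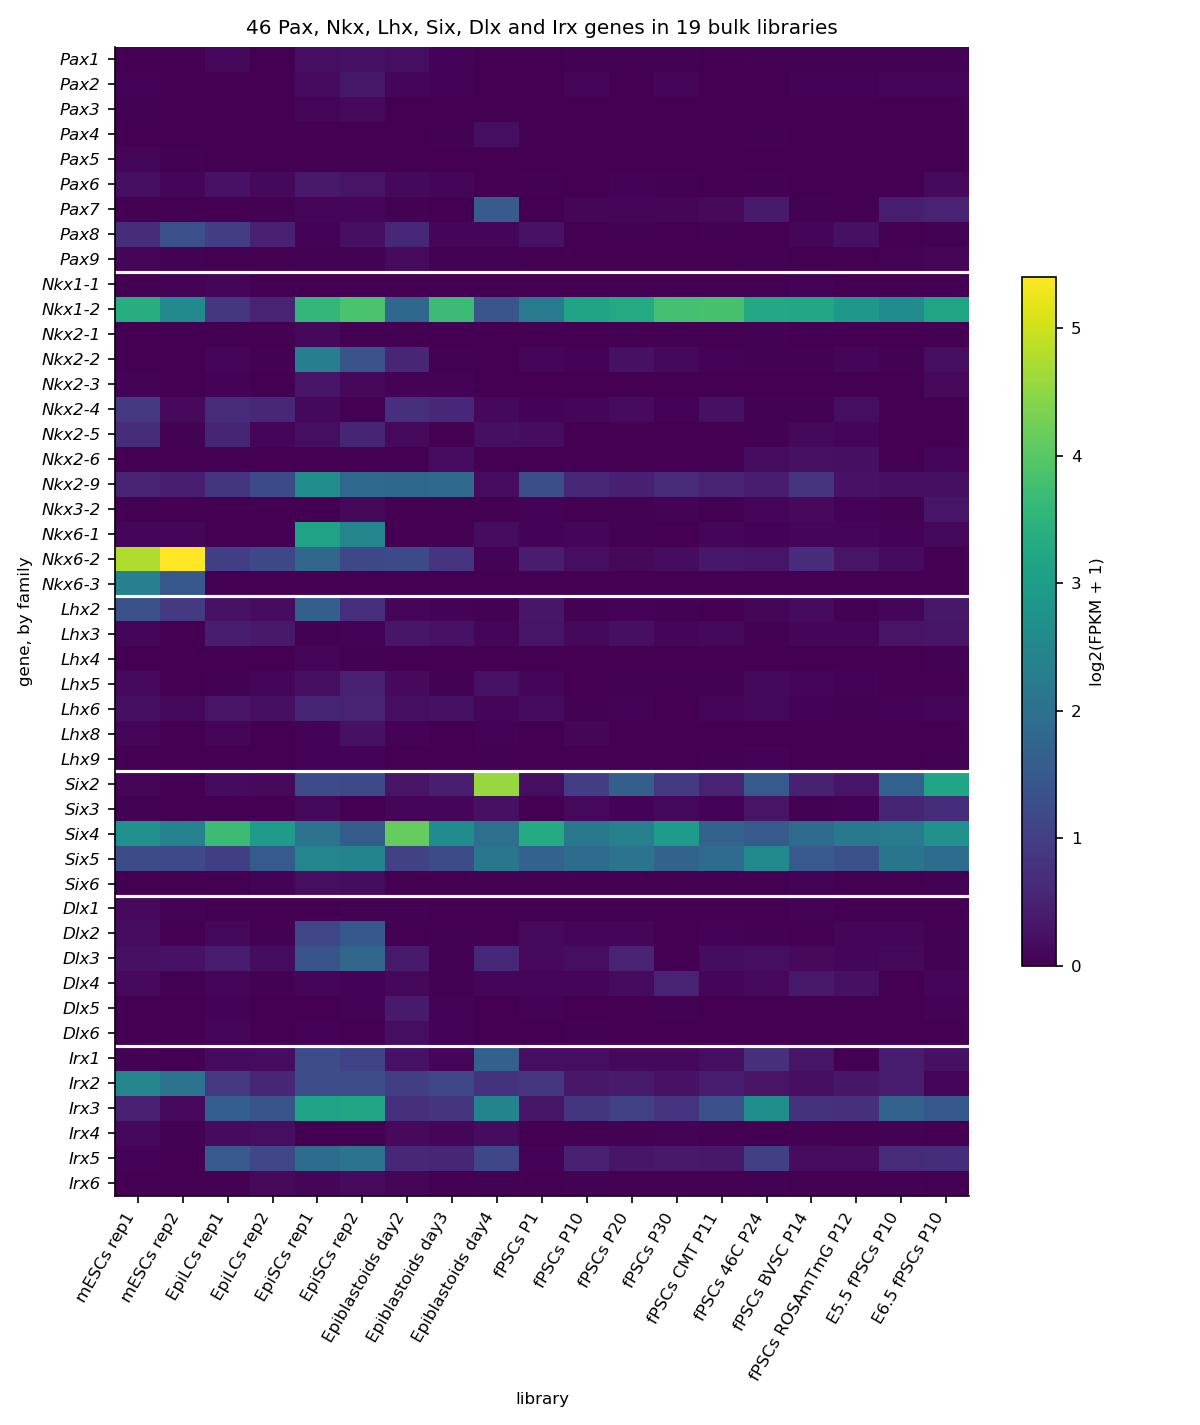
Each row is 1 of 46 of the 48 genes, grouped by family with white lines between families, each column 1 of the 19 bulk libraries, and the colour is log2(FPKM + 1). Most rows are dark throughout (28 of those shown under 1 FPKM in every library), Six4 is above 1 FPKM in all 19, and the 2 EpiSC columns hold the most genes at 1 FPKM or more (16 and 15).

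The promoters of these genes nearly all carried both marks in fPSCs P10. Signal was averaged over 5000 bp to each side of the gene start, as RPKM (reads per kilobase, scaled to the depth of the file) of 100 bp bins, and set against 22089 promoters. A gene was first called bivalent by z-scores over 1 for H3K27me3 and over 0 for H3K4me3. By this rule 0 of 48 genes passed, and 0.0679% of all promoters, because a handful of promoters with extreme signal raised the standard deviation of H3K27me3 to 18.6 RPKM around a mean of 0.892. When mean and SD were taken without the 0.1% of promoters with the highest values, a choice made after the data were seen, 43 of 48 genes (89.6%) had both marks, against 6.73% of all promoters. This second rule is used below. In other homeobox genes it called 57 of 66 promoters. Each mark is in 1 file, and the study's methods combine replicates before later steps, so no spread between samples can be given, but the bins are whole multiples of the value of 1 read, from which 8.04e+06 H3K4me3 reads and 1.55e+07 H3K27me3 reads follow. Intervals given for promoters are exact Poisson 95% intervals of these reads and cover counting error only. No windows of the 48 genes overlapped, since the closest starts lay 18641 bp apart.

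Median H3K27me3 over the 48 promoters was 3.66 RPKM, against 0.379 over all promoters, and median H3K4me3 was 3.17 against 1.13. H3K4me3 was above the mean of 20 housekeeping genes (2.66 RPKM) as well as paired with H3K27me3 at 33 of the 48 (68.8%), against 1.86% of all promoters. The same held at 43 of 66 other homeobox promoters (65.2%). The 5 genes with the most H3K27me3 were Nkx2-5 with 5.69 RPKM (interval 5.32 to 6.07), Lhx2 with 5.21, Pax5 with 5.00, Pax3 with 4.62 and Nkx2-3 with 4.55. These act in heart, forebrain and eye, B cells, neural crest and gut, and all 5 were under 1 FPKM in every fPSC library. Among the 5 with the least were Six4 (0.476 RPKM, interval 0.374 to 0.598), Six5 (0.592, interval 0.477 to 0.726), Pax4 (1.06) and Nkx1-2 (1.66, interval 1.47 to 1.88). Six4 and Six5 carried H3K4me3 without H3K27me3, 2 genes, Nkx2-4 among them, carried H3K27me3 without H3K4me3, and Pax4, a gene of the endocrine pancreas, carried neither.

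**Figure D2:**
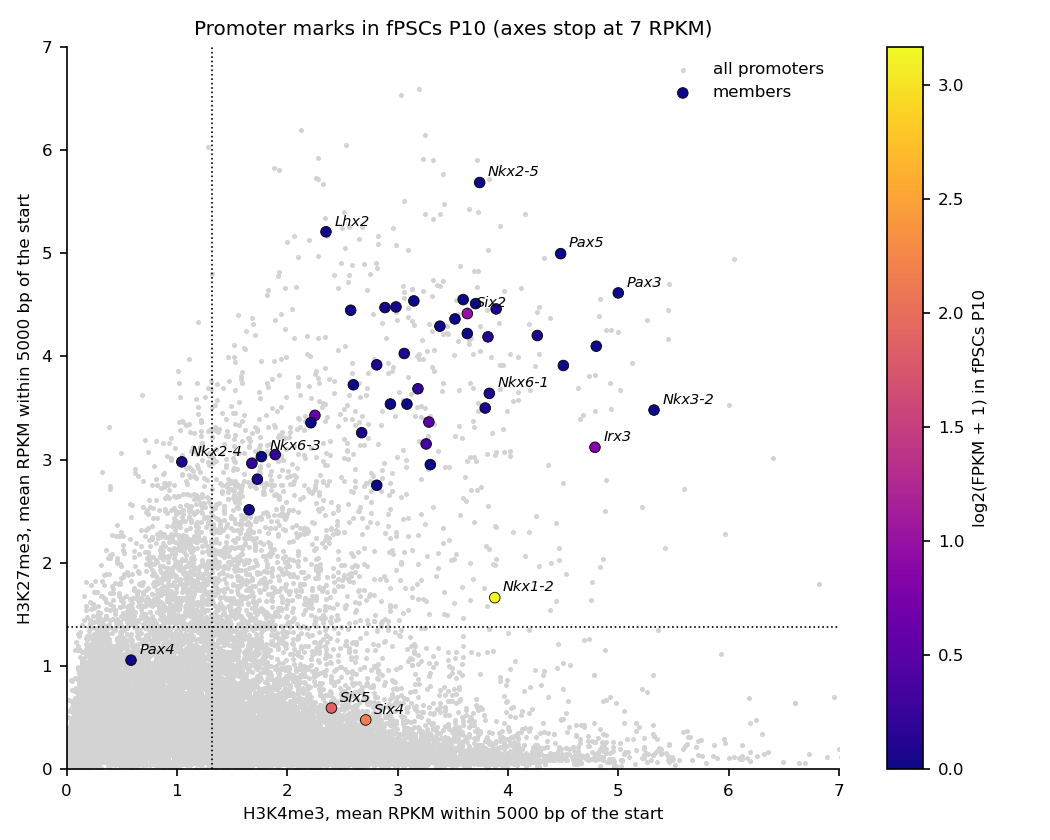
H3K4me3 (x axis) and H3K27me3 (y axis) as mean RPKM within 5000 bp of the start in fPSCs P10, for all promoters (grey) and 46 of the 48 genes (circles coloured by log2(FPKM + 1) in fPSCs P10), with dotted lines at the limits for both marks. Axes stop at 7 RPKM. The bivalent genes fill the upper right, and of the 43 Nkx1-2 is both the lowest in H3K27me3 (1.66 RPKM) and the highest in RNA (7.98 FPKM).

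Around the start, H3K27me3 of the 43 bivalent genes was not flat. In 100 bp bins its mean was 3.54 RPKM at 500 bp before the start, 1.86 at the start and 4.20 at 1000 bp after it. H3K4me3 of the same genes was 4.37, 2.78 and 4.69 RPKM at these places. At housekeeping genes H3K4me3 stood at 10.7 RPKM at 500 bp after the start and had fallen to 0.684 at 4000 bp, where the bivalent genes still had 3.82. With the window narrowed to 1000 bp to each side, 33 of the 48 kept or gained both marks. Irx3 and Irx2 had only 0.547 and 0.418 RPKM of H3K27me3 in this narrow window, against 3.12 and 3.15 RPKM in the wide one, and Nkx1-2 fell under the limit too (1.22 RPKM, z-score 0.80).

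**Figure D3:**
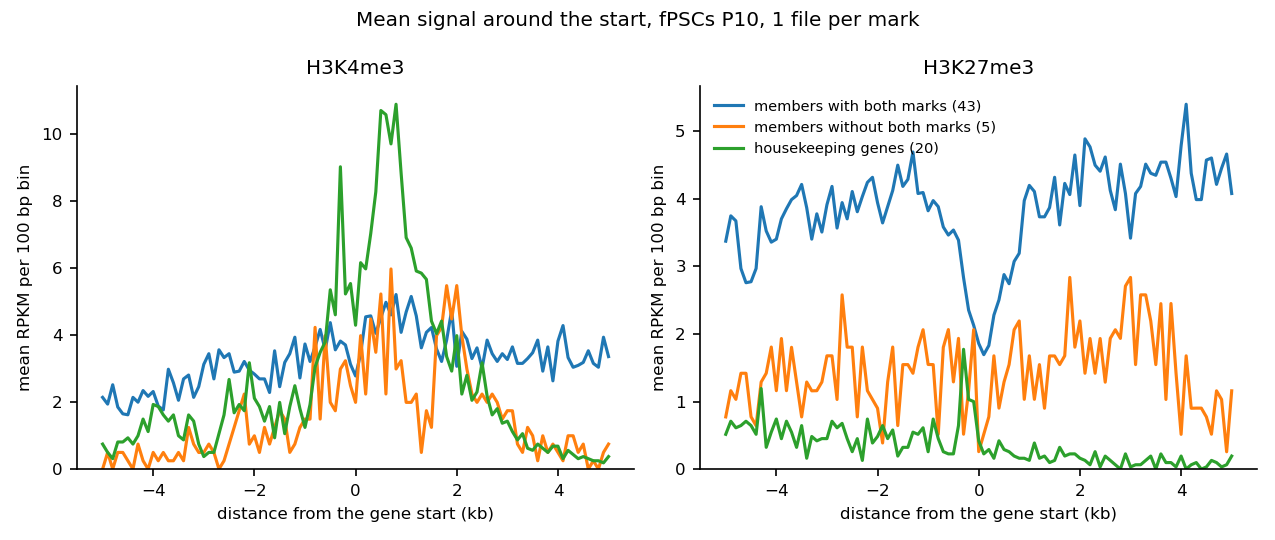
Mean RPKM per 100 bp bin against distance from the gene start in kb, for H3K4me3 (left) and H3K27me3 (right), in the 43 genes with both marks (blue), the 5 without both (orange) and 20 housekeeping genes (green). H3K27me3 of the bivalent genes dips to 1.86 RPKM at the start, and their H3K4me3 is lower but wider than that of housekeeping genes.

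The sequences of 4 contrasting promoters are shown from 250 bp before to 50 bp after the gene start, read on the gene's strand from NCBIM37, the assembly of mm9. All 4 genes lie on the minus strand. Capitals mark each CpG, the site of DNA methylation and a feature of promoters that Polycomb occupies. Nkx6-1 (chr5:102094196-102094495) stands for a bivalent gene under 1 FPKM in all fPSC libraries. Nkx1-2 (chr7:139791271-139791570) stands for the gene that leaks, bivalent in the 5000 bp window but not in narrower ones. Six4 (chr12:74214352-74214651) stands for H3K4me3 alone and Pax4 (chr6:28399304-28399603) for neither mark.
Nkx6-1: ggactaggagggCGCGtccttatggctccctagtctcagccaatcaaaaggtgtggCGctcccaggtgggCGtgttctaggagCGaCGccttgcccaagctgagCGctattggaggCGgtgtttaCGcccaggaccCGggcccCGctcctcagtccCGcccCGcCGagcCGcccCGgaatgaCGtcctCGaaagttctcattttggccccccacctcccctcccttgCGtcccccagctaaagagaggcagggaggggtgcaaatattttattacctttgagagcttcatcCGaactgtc
Nkx1-2: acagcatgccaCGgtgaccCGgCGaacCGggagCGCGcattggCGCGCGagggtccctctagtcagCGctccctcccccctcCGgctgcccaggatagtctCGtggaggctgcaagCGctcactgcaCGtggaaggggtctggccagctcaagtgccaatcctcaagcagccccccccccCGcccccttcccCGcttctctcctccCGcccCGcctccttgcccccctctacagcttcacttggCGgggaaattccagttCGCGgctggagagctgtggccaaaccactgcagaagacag
Six4: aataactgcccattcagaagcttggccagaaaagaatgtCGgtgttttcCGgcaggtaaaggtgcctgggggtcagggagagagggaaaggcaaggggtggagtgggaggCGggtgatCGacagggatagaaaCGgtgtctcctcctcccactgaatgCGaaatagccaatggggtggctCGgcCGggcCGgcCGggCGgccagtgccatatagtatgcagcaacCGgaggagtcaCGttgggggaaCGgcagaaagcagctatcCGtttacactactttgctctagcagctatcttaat
Pax4: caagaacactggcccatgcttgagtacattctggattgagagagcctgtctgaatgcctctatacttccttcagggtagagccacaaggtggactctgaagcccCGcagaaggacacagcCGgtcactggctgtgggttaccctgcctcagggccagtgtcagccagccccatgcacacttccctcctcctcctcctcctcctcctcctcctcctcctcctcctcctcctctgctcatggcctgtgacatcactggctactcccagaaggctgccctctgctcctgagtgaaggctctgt
The motif searched was CG, which reads the same on both strands. Nkx6-1 held 20, Nkx1-2 21, Six4 15 and Pax4 2 in these 300 bases, and 32.5%, 30.1%, 43.5% and 87.8% of all promoters of the same length held at least as many. Over the 48 genes the median was 15.5, against 11 in all promoters, and 39 of 48 held 10 or more, against 54.0% of all promoters. The median was 15 in the 43 genes with both marks and 17 in the 5 without both. In 20 housekeeping promoters it was 18, and 85% of them held 10 or more. CpG were thus not more frequent in the bivalent genes than in these. Pax4 had the fewest of the 48, while Dlx1, which had both marks, held 3.

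DNA methylation in fPSCs P10 was low at most of these promoters. Values are fractions per 100 bp window without coverage, averaged within 1000 bp of the start and given here in percent. Under 20% lay 41 of 48 genes (85.4%), against 33.0% of all promoters with a value, and the median was 1.68% against 34.9%. Of 66 other homeobox promoters, 51 lay under 20% (77.3%), with a median of 2.5%. Windows at 20% or less were joined into stretches over short gaps without a value. A stretch of 5 kb or more spanned 11 of the 48 starts (22.9%), 16 of 66 other homeobox starts (24.2%) and 0.525% of all promoters. The longest of the 11 lay at Pax6 (10 kb), Nkx3-2, a gene of the axial skeleton (9.30 kb), and Lhx8 (7.60 kb). Among the 7 genes at 20% or more were Pax4 (91.2%, from 4 windows), Nkx6-3 (90.8%), Lhx3 (39.6%), Dlx4 (29.5%), Pax8 (27.3%) and Dlx3 (24.2%). Nkx6-3, a stomach gene, thus had H3K27me3 at 3.03 RPKM over a methylated start, and its H3K4me3 within 1000 bp was 0.558 RPKM.

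Of the 43 bivalent genes 1 reached 1 FPKM in the fPSCs P10 library (2.33%), against 27.6% of the 1302 bivalent genes with an RNA value in the whole table and 6 of 57 other homeobox genes. That gene was Nkx1-2, at 7.98 FPKM. It counts as bivalent in the 5000 bp window (H3K27me3 z-score 1.38), but not within 2500 bp (0.90) or 1000 bp (0.80). Under 1 FPKM were Six2 (0.981 FPKM), Irx3 (0.782), Nkx2-9 (0.530) and Irx5 (0.412), and the median over the 43 was 0.020 FPKM. The 3 of the 48 genes at 1 FPKM or more in P10, Nkx1-2, Six4 (3.53 FPKM) and Six5 (2.71), had 3 of the 4 lowest H3K27me3 values, while Six2 and Irx3 carried 4.42 and 3.12 RPKM. In other long-term fPSC libraries Irx3 passed 1 FPKM in P20, CMT P11 and 46C P24, Six2 in P20 and 46C P24, and Irx5 in 46C P24, where chromatin was not measured. The 29 genes silent in all libraries had a median H3K27me3 of 4.10 RPKM (1.06 to 5.69). It was 3.54 RPKM (2.96 to 5.21) at the 11 genes at 1 FPKM or more only outside the fPSC libraries, and 3.24 (0.476 to 4.45) at the 8 genes on in at least 1 of the 10 fPSC libraries. These ranges overlap. Across the 48 genes, Spearman's rho of H3K27me3 with FPKM in P10 was -0.37, against -0.29 over 17694 promoters, and that of H3K4me3 was -0.11, against 0.72. All points share 1 RNA library and 1 file per mark.

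Nkx1-2, a gene of the caudal epiblast and of progenitors of spinal cord and somites, was at 1 FPKM or more in 17 of 19 libraries. In mESCs it was at 9.33 and 4.88 FPKM, in EpiLCs at 0.802 and 0.422, in EpiSCs at 10.9 and 13.6, and in the 7 long-term fPSC libraries between 6.37 and 13.2 with a median of 8.52. Epiblastoids had 2.48, 12.0 and 1.70 FPKM on days 2, 3 and 4, fPSCs P1 3.69, and the lines from E5.5 and E6.5 epiblasts 5.17 and 8.12. EpiLCs were thus below every other library. Groups were compared with limma on log2(FPKM + 1), a scale that understates changes of low genes, and a call needed a Benjamini-Hochberg adjusted p under 0.05 over 12513 genes and a 1.5-fold change. Nkx1-2 was higher in fPSCs than in EpiLCs by 2.67 ± 0.27 on the log2 scale (SE, limma adjusted p = 1.93e-05), with no overlap of libraries. The mean was 9.89 FPKM in the 3 fPSC libraries of the EpiLC protocol and 9.09 in the other 4. Against mESCs and EpiSCs its difference did not pass the threshold.

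In the Six4 family, 4 of 6 genes were on in some library, the highest share of the 6 families together with Irx. Six4, a gene of muscle and sensory development, was the 1 gene on everywhere, without H3K27me3 at its start in fPSCs P10. Its FPKM was 5.61 and 4.24 in mESCs, 12.1 and 6.81 in EpiLCs, 3.15 and 2.00 in EpiSCs, and 1.88 to 6.77 with a median of 3.53 in long-term fPSCs. Epiblastoids day 2 had the highest value, 16.6, before 5.19 and 2.99 on days 3 and 4. Six5, which lies beside Dmpk and whose loss causes cataract in mice, stayed between 0.994 and 4.87 FPKM in the 19 libraries, with 4.51 and 4.43 in EpiSCs, 1.40 and 1.29 in mESCs, and 1.52 to 4.87 in long-term fPSCs. Six4 was lower in fPSCs than in EpiLCs by -1.22 ± 0.33 (limma adjusted p = 0.0242), a call lost without EpiLCs replicate 1 and with the 3 fPSC libraries of the EpiLC protocol alone.

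Six2, which keeps nephron progenitors, was highest in Epiblastoids day 4, at 22.6 FPKM, after 0.211 and 0.364 on days 2 and 3. The line from E6.5 epiblasts had 8.06 FPKM and that from E5.5 epiblasts 2.27. In day 4 and the E5.5 and E6.5 lines, 11 endoderm genes summed to 723, 264 and 184 FPKM. There 14 genes of primitive streak and mesoderm summed to 1086, 336 and 318. These were the highest sums of either list outside 46C P24. In 46C P24 the sums were 442 and 364, above those of both epiblast-derived lines, while Six2 was at 1.89 FPKM. In P20 they were 51.3 and 197, with Six2 at 2.12 FPKM. The part of these lists in the Six2 values was not tested. Long-term fPSCs ranged from 0.235 to 2.12 with a median of 0.894, EpiSCs had 1.36 and 1.33, and mESCs, EpiLCs and fPSCs P1 were at 0.145 or less. Six2 was higher in fPSCs than in mESCs by 0.87 ± 0.30 (limma adjusted p = 0.0320), but the call was lost without either mESC library and with the 4 fPSC libraries of the other kit alone.

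**Figure D4:**
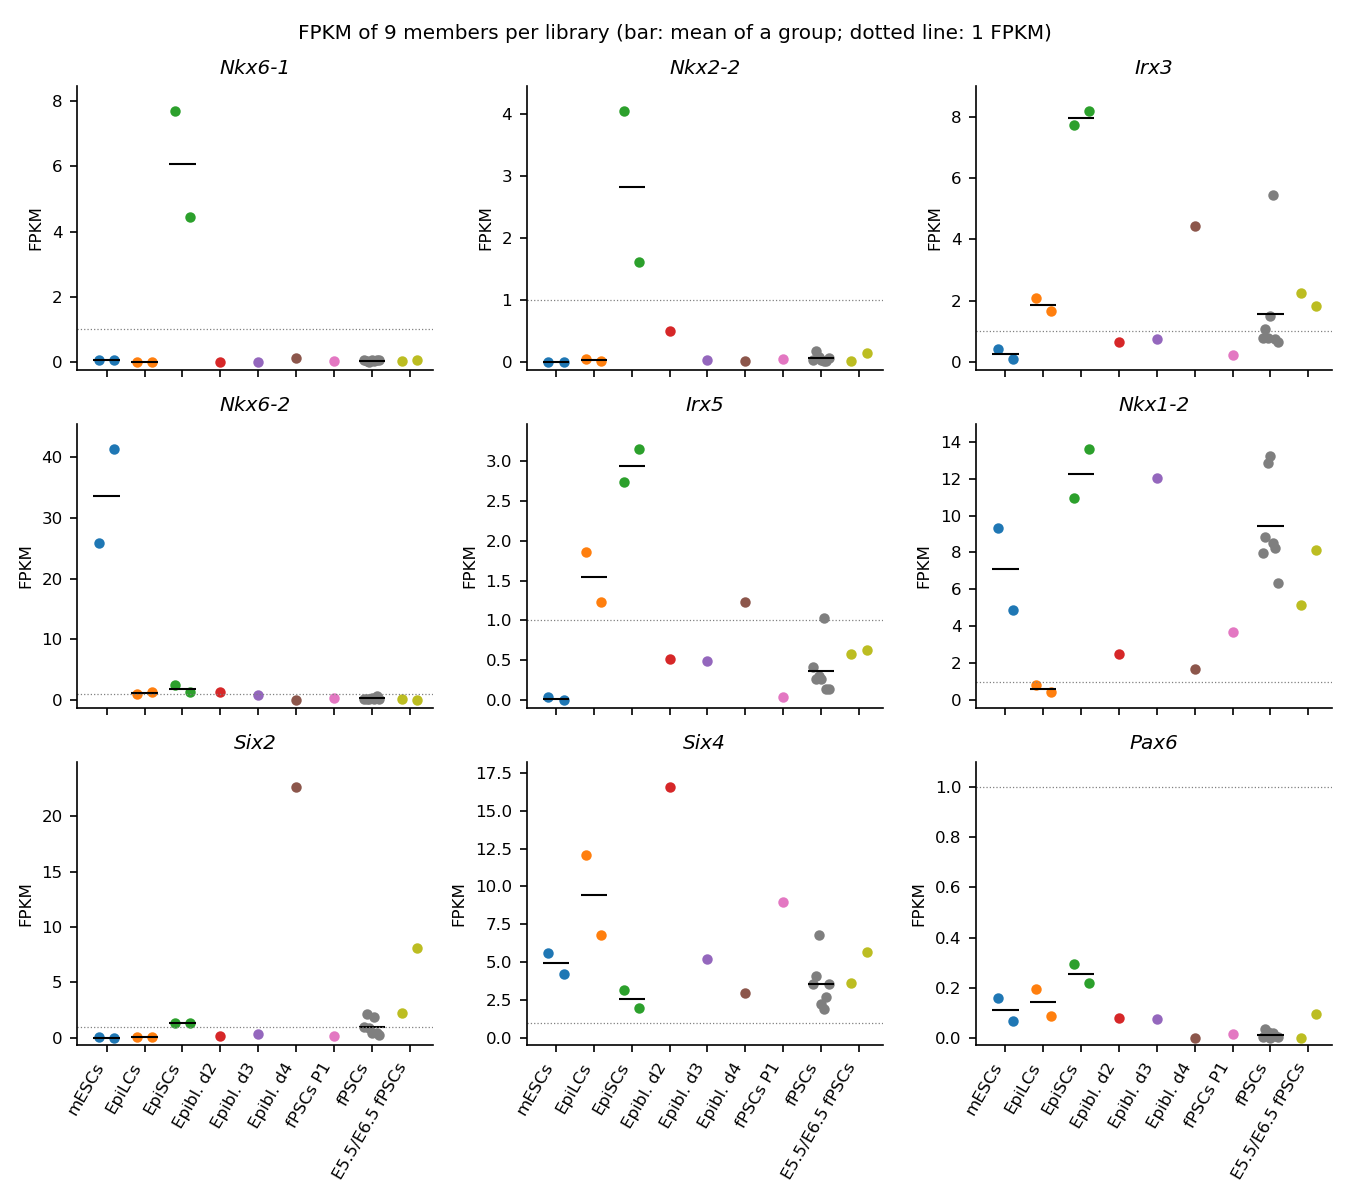
FPKM of 9 genes in each of the 19 libraries (points), by group, with the mean of mESCs, EpiLCs, EpiSCs and long-term fPSCs as a bar and 1 FPKM as a dotted line. Each axis has its own scale. Nkx6-1 and Nkx2-2 rise above 1 FPKM only in the 2 EpiSC libraries, Irx5 is highest in the EpiSC libraries (2.74 and 3.15 FPKM), and Pax6 does not exceed 0.295 FPKM in any library.

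In EpiSCs, Nkx6-1, Nkx2-2 and Nkx2-9, which are known from the ventral neural tube, were at 1 FPKM or more. Nkx6-1 was at 7.69 and 4.46 FPKM there and at 0.131 or less in each of the other 17 libraries. Nkx2-2 was at 4.05 and 1.61 FPKM in EpiSCs, listed at 0 in both mESC libraries, and at most 0.505 elsewhere. For Nkx2-9, which is expressed beside the floor plate, EpiSCs had 5.31 and 2.58 FPKM, Epiblastoids on days 2 and 3 2.56 and 2.61, EpiLCs 0.783 and 1.31, fPSCs P1 1.45, and long-term fPSCs 0.202 to 0.769 with a median of 0.455. All 3 were under 1 FPKM in the long-term fPSC libraries, and their promoters in P10 were at 3.64 RPKM of H3K27me3 for Nkx6-1, 3.26 for Nkx2-2 and 3.43 for Nkx2-9. Between fPSCs and EpiSCs the log2 difference of Nkx6-1 was -2.73 ± 0.13 (limma adjusted p = 5.38e-09), that of Nkx2-2 -1.78 ± 0.17 (4.75e-06) and that of Nkx2-9 -1.71 ± 0.20 (2.22e-05).

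Of the Irx genes Irx1, Irx3 and Irx5, and of the Dlx genes Dlx2 and Dlx3, were higher in EpiSCs than in mESCs by limma, while Irx2 was lower and the other Irx and Dlx genes stayed under 1 FPKM. Irx3, a patterning gene of neural tube and heart, was at 7.74 and 8.19 FPKM in EpiSCs, 2.08 and 1.66 in EpiLCs, and 0.420 and 0.0947 in mESCs. Its neighbour Irx5 was at 2.74 and 3.15 FPKM in EpiSCs, 1.86 and 1.23 in EpiLCs, and 0.0334 and 0 in mESCs. For Irx1 these values were 1.42 and 1.13, 0.111 and 0.138, and 0.0266 and 0. Of the Dlx genes, Dlx2, of forebrain interneurons, was at 1.18 and 1.80 FPKM in EpiSCs and Dlx3, of surface ectoderm and placenta, at 1.66 and 2.45, while no other library exceeded 0.138 and 0.538. Long-term fPSCs were lower than EpiSCs in Irx3 by -1.98 ± 0.41 (limma adjusted p = 0.00245), in Irx5 by -1.56 ± 0.19 (3.78e-05), in Dlx2 by -1.26 ± 0.09 (3.55e-07) and in Dlx3 by -1.41 ± 0.14 (5.37e-06).

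Fibroblast genes moved with these genes. EpiSCs were the 1 group on feeders, and of a list of 22 fibroblast genes 18 were at 1 FPKM or more in both EpiSC libraries, against 2 to 9 in the other 17. The list summed to 1340 and 1668 FPKM in EpiSCs and to between 41.1 and 415 elsewhere. Col1a1 was at 111 and 153 FPKM in EpiSCs and at most 0.878 elsewhere, while in both EpiSC libraries Fap, Postn, Lum and Pdgfra, also fibroblast markers, stayed under 1 FPKM, Fap at 0 and 0.00321. Sox1, a gene of the early neural plate, was at 19.6 and 13.2 FPKM in EpiSCs and at most 1.48 elsewhere. Of a list of 11 neural genes, 6 and 4 were at 1 FPKM or more in the EpiSC libraries, against 2 to 4 elsewhere. This list summed to 172 and 165 FPKM in EpiSCs and to between 17.0 and 68.3 elsewhere. Pax6, also a neural gene, was at 0.295 and 0.217 FPKM in EpiSCs. The part of feeder RNA or of neural cells in the EpiSC values was not tested, and in bulk RNA fewer cells of a type and less RNA per cell cannot be told apart.

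In mESCs, another set of genes was on. Nkx6-2, of ventral neural progenitors and oligodendrocytes, was at 25.9 and 41.3 FPKM, and no other library exceeded 2.43. Nkx6-3 was at 4.13 and 1.81 FPKM and listed at 0 in the other 17 libraries. Irx2 was at 4.48 and 3.17 FPKM in mESCs, 1.44 and 1.46 in EpiSCs, 0.864 and 0.50 in EpiLCs, and 0.163 to 0.334 with a median of 0.261 in long-term fPSCs. Lhx2, which acts in eye, forebrain and hair follicle, was at 1.55 and 0.888 FPKM in mESCs, 2.1 and 0.680 in EpiSCs, and at most 0.268 elsewhere. Pax8, of thyroid and kidney, passed 1 FPKM in mESCs replicate 2 alone (1.49), with 0.639 in the other mESC library. It was not confined to mESCs, with 0.968 and 0.413 FPKM in EpiLCs, 0.508 in Epiblastoids day 2 and at most 0.200 elsewhere. Against mESCs, long-term fPSCs were lower in Nkx6-2 by -4.77 ± 0.21 (limma adjusted p = 1.06e-09), in Irx2 by -1.94 ± 0.12 (4.24e-08) and in Lhx2 by -1.07 ± 0.17 (0.000265). The call for Nkx6-3 had an adjusted p of 4.45e-07 by limma, and no fold is given because fPSCs are listed at 0.

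Within the fPSC libraries, Irx genes stood out in the line 46C. There Irx3 was at 5.45 FPKM, against 0.655 to 1.5 in the other 6 long-term libraries, Irx5 at 1.03 against 0.138 to 0.412, and Irx1 at 0.647 against 0 to 0.238. In Epiblastoids day 4, Irx3 was at 4.45, Irx1 at 2.16, Irx5 at 1.23 and Pax7, of muscle stem cells and neural crest, at 1.93 FPKM, its only value above 1. The lines from E5.5 and E6.5 epiblasts had Irx3 at 2.26 and 1.82 FPKM. The endoderm and streak lists summed higher in the same libraries than in the other 6 long-term libraries. Sox17 was at 50.6 FPKM in 46C P24 and 0.265 to 13.1 in the other 6, at 68.7 in Epiblastoids day 4, and at 12.7 and 11.6 in the epiblast-derived lines. The endoderm list summed to 442 FPKM in 46C P24 and 13.4 to 109 in the other 6. It summed to 723 in Epiblastoids day 4 and to 264 and 184 in the epiblast-derived lines. Of its 11 genes, 9 were at 1 FPKM or more in 46C P24 and in day 4, against 2 to 8 in the other 6. Afp and Sox7 were under 1 FPKM in 46C P24 and in day 4. The list of streak and mesoderm genes summed to 364 FPKM in 46C P24 and 100.7 to 197 in the other 6. Of its 14 genes, 9 were at 1 FPKM or more in 46C P24, and 8 or 9 in the other 6. Msgn1 was at 0.429 in 46C P24. Lhx1, which belongs to that list, was at 86.5 FPKM in 46C P24 and 1.32 to 13.6 in the other 6. The part of these cell types in the Irx values was not tested.

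Over all groups, limma tested the 17 of the 48 genes that had 1 FPKM or more in 2 or more of the 13 libraries compared, and 31 were not tested. A gene that is on in 1 group alone passes this filter through that group. The counts and median differences below therefore describe the genes and carry no weight as a set. Comparisons that share a group are not independent. Between EpiSCs and mESCs 10 genes were higher in EpiSCs and 4 lower (of all genes tested 47.8% were called, 23.1% higher and 24.7% lower). Between EpiSCs and EpiLCs 12 were higher and 2 lower (of all genes 35.9%, as 20.4% and 15.5%). Between EpiLCs and mESCs 2 were higher, Irx5 among them, and 5 lower, Irx2, Lhx2, Nkx1-2, Nkx6-2 and Nkx6-3 (of all genes 29.6%, as 12.2% and 17.4%). The median difference of the 17 genes was 1.18, 1.08 and 0.05 in these 3 comparisons, and that of all genes tested -0.09, -0.03 and -0.06. Testing the same genes without 1 EpiSC library left 9 of the 14 calls between EpiSCs and EpiLCs, with the calls of Irx3, Irx5, Six2 and Six5 lost without either library, of Lhx2 without replicate 1 and of Six4 without replicate 2.

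In the comparison of long-term fPSCs with EpiSCs, by limma 0 of the 17 genes were higher in fPSCs, also at an unadjusted p under 0.05, and 12 were lower, while of all genes tested 32.3% were called, 13.3% higher and 19% lower. Among the 12 were Nkx6-1, Nkx2-2, Nkx2-9, Nkx6-2, Irx1, Irx2, Irx3, Irx5, Dlx2, Dlx3 and Lhx2. Of the list of fibroblast genes 17 of 18 tested were lower in this comparison too. The same 12 genes were called with the 3 fPSC libraries of the EpiSC protocol alone and with the other 4 alone. Against mESCs 1 gene, Six2, was higher and 5 were lower, among them Irx2, Lhx2, Nkx6-2 and Nkx6-3 (of all genes 40.3%, as 17.3% and 23.0%). Against EpiLCs 1 gene, Nkx1-2, was higher and 4 were lower, among them Six4, Nkx6-2 and Irx5 (of all genes 13.8%, as 5.66% and 8.15%). The median difference of the 17 genes was -1.16 against EpiSCs, -0.03 against mESCs and -0.12 against EpiLCs, and that of all genes tested 0.02, -0.04 and 0.01. Dlx2, Dlx3, Irx1, Nkx2-2 and Nkx6-1 passed the filter through the EpiSC libraries alone. The median against EpiSCs is thus partly set by the filter. Without EpiLCs replicate 1, the calls against EpiLCs fell to 2, Nkx1-2 among them.

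**Figure D5:**
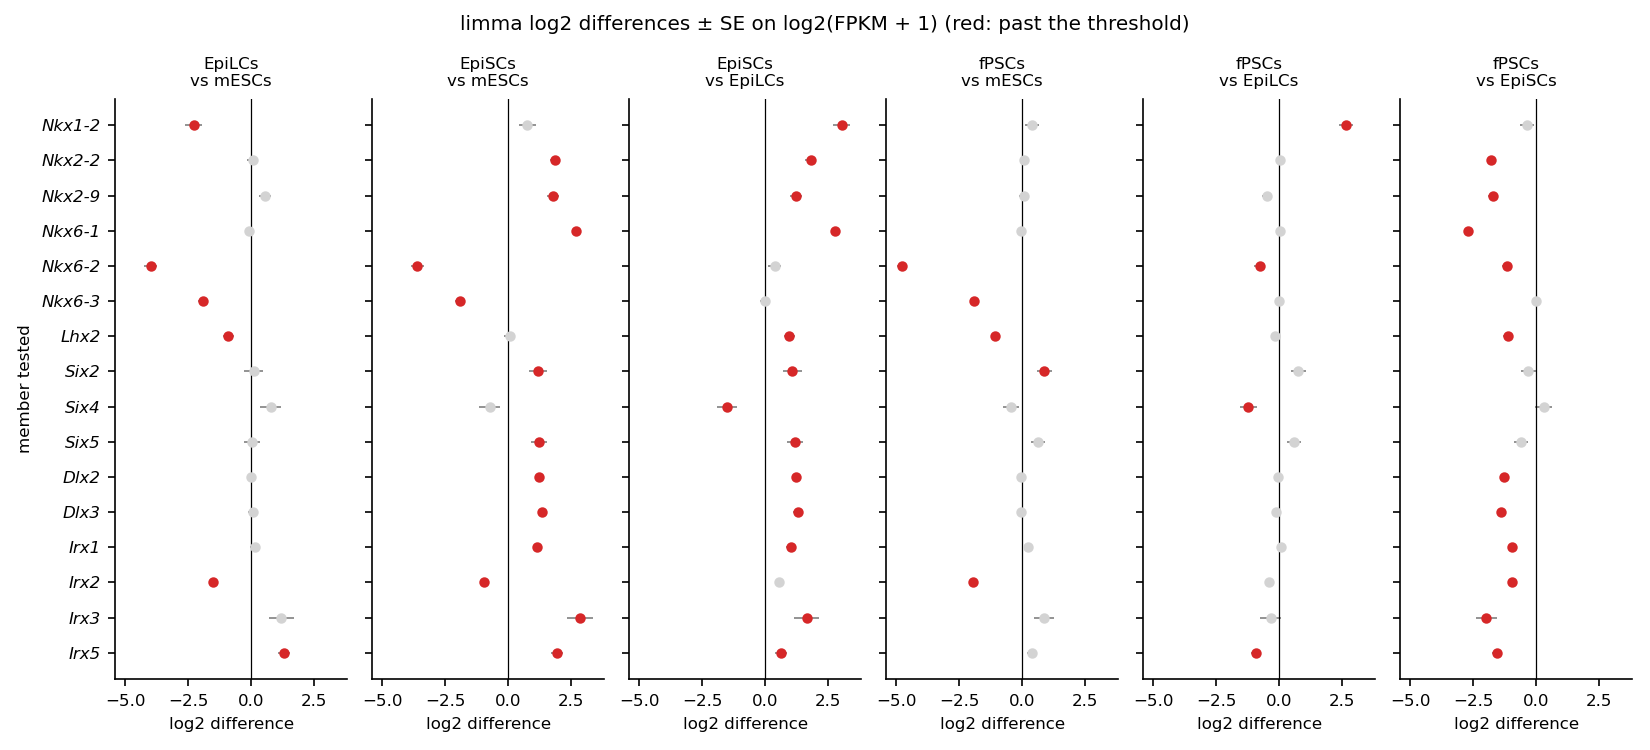
Differences on log2(FPKM + 1) with their SE (x axis) for 16 of the 17 genes tested (rows) in 6 comparisons (panels). Red points passed the threshold, and the values of Nkx6-3, and of Nkx2-2 against mESCs, depend on the pseudocount because a group is listed at 0. In the last panel 11 genes lie below 0 in red, and Nkx1-2 is the 1 red point above 0 between fPSCs and EpiLCs.

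Partners of these factors were counted from a fixed list. It has 26 cofactors and holds Eya and Dach genes (partners of Six4 and its relatives), Ldb, Lmo and Ssbp genes (partners of Lhx), Tle co-repressors, and Pbx and Meis homeodomain partners. Of these 20 were tested. In fPSCs 9 were higher and 6 lower than in mESCs, and 5 higher and 1 lower than in EpiLCs. Against EpiSCs 2 were higher and 4 lower. Of all genes tested 40.3%, 13.8% and 32.3% were called in these 3 comparisons. Ldb1, the scaffold of Lhx complexes, was at 31.3 to 57.3 FPKM in the 7 long-term fPSC libraries and at 95.4 and 91.2 in mESCs, a difference of -1.08 ± 0.23 (limma adjusted p = 0.00182). Meis2 was at 0.00847 to 0.269 FPKM in long-term fPSCs, 12.7 and 5.02 in mESCs, and 9.67 and 6.57 in EpiSCs, and was lower than in EpiSCs by -3.01 ± 0.24 (6.46e-07). Of 23 tested genes of the Polycomb and Trithorax systems, 2 were higher and 8 lower in fPSCs than in mESCs. Against EpiSCs 2 were higher and 1 lower. The other 13 and 20 genes were not called, where of all genes tested 40.3% and 32.3% were called. Suz12, a core subunit of the complex that writes H3K27me3, was at 20.8 to 36.2 FPKM in long-term fPSCs, 62.8 and 67.6 in mESCs, and 11.1 and 9.42 in EpiSCs. It was lower in fPSCs than in mESCs by -1.30 ± 0.20 (limma adjusted p = 0.000178) and higher than in EpiSCs by 1.26 ± 0.20 (0.000373). Of 18 tested other homeobox genes, 4 were higher and 7 lower in fPSCs than in mESCs, with 7 not called. Against EpiSCs 2 were higher and 6 lower, with 10 not called. The shares of all genes called are those given above.

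Single fPSCs of 4 clones showed Nkx1-2 in many cells. Of 181 cells with at least 500 genes, with a median of 3585 genes and 23867 counts, 69 held at least 1 count of Nkx1-2 (38.1%, exact binomial 95% interval 31.0% to 45.6%). By clone there were 15 of 46, 18 of 45, 24 of 46 and 12 of 44 cells, and the counts summed to 569 with up to 99 in a cell. Six4 was seen in 45 cells (24.9%, interval 18.7% to 31.8%). Cells are not replicates, so no test was run, and the intervals cover counting error only. The other listed genes were detected in few cells, with Irx2, Dlx5 and Lhx4 in 6 cells each, Irx3 in 4, Six5 and Nkx2-2 in 3, Six2 in 2 and 8 more genes in 1 or 2. Irx3 gave 65 counts, 61 of them in 1 cell. At least 1 count of any of the 48 genes was found in 107 cells. The tables list 17 of the 48 genes, and the other 31, Pax6 and Nkx6-1 among them, are not listed and were not analysed in single cells. Detection was incomplete for abundant genes too, since Pou5f1 was found in 17 of the 181 cells (9.39%), Otx2 in 121 and Actb in 179.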

How the data were processed

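The authors deposited FPKM per gene for 19 bulk RNA libraries. The submitters' processing notes name cutadapt 1.11, TopHat2 2.1.1, Cufflinks 2.1.1, Bowtie2 2.2.2, BS-Seeker2, Trim Galore and mm9, without roles. The authors deposited H3K4me3 and H3K27me3 as RPKM in 100 bp bins, and DNA methylation as a fraction per 100 bp window without coverage. The study's methods combine ChIP replicates for later steps, but nothing in a file tells if it holds one replicate or both, and for methylation this is not given in the sources used here. Single-cell values were deposited by the authors as counts per gene.

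Genes at 1 FPKM or more in 2 or more libraries were fitted with limma 3.58.1 (R 4.3.3, trend) on log2(FPKM + 1) over mESCs, EpiLCs, EpiSCs and the 7 long-term fPSC libraries, and the procedure was tested on simulated data. FPKM keeps no depth per library, so no counting error is given for it. RPKM bins were whole multiples of the value of 1 read within 0.01 RPKM for 99.9977% of H3K4me3 and 99.8718% of H3K27me3 bins that held under 100 reads. Promoters were set against all others by z-score. Cells with 500 genes or more were kept, and doublets were not searched for. Values in each library were given for genes at 1 FPKM or more in 2 or more libraries or past the limma threshold, and for Pax6 and Nkx6-1; Pax7 and Pax8 were added after their values were seen. For 2 of the 48 genes, which the counts include, values are not reported here. Genes, lists and tests were chosen with earlier results of these data known. Alternatives covered pseudocount, filter, scaling, fPSC protocol, left-out libraries, promoter width and thresholds. Python 3.11.15 with pandas 2.3.3 was used.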

Additional observations from a re-analysis of the deposited data

Results flagged for a closer look

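Among the 7 long-term fPSC libraries, 1 library lay far from the others by Dixon's test for 6 of the 17 genes tested. The nominal rate of about 1 in 20 assumes normally spread values from like libraries. Low FPKM values from different lines and kits do not meet this, so the count is description only. In 46C P24, Irx3 was at 5.45 FPKM (next 1.5), Irx5 at 1.03 (next 0.412) and Irx1 at 0.647 (next 0.238). In P20, Dlx3 was at 0.453 FPKM (next 0.155) and Nkx2-2 at 0.177 (next 0.0808). In BVSC P14, Nkx6-2 was at 0.618 FPKM (next 0.275). All but the Irx3 and Irx5 values lie under 1 FPKM.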

How the results depend on the processing

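With 1 library left out at a time, the number of the 48 genes past the limma threshold ranged from 5 to 7 between EpiLCs and mESCs, 7 to 14 between EpiSCs and mESCs, 4 to 12 between EpiSCs and EpiLCs, 3 to 7 between fPSCs and mESCs, 2 to 6 between fPSCs and EpiLCs, and 6 to 13 between fPSCs and EpiSCs. Without EpiSCs replicate 1 or 2, Dlx2, Dlx3, Irx1, Nkx2-2 and Nkx6-1 no longer passed the filter and were not tested. When the genes of the full comparison were tested, 12 and 12 calls were left between EpiSCs and mESCs, 9 and 9 between EpiSCs and EpiLCs, and 12 and 12 between fPSCs and EpiSCs. Without mESCs replicate 1 the fPSC to mESC calls fell to 3, or to 5 when the genes of the full comparison were tested. Without EpiLCs replicate 1 the fPSC to EpiLC calls fell to 2 in both ways. A group left with 1 library is assumed to vary like the others. Of 1272 single calls whose gene was still tested under an alternative, 1188 kept direction and side of the threshold, 84 missed the threshold and 0 turned. Calls lost because the gene no longer passed the filter are not among the 1272.

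Replicate numbers are shared by mESCs, EpiLCs and EpiSCs. Deviations of same-numbered libraries from their group means correlated over genes at 0.21 for mESCs with EpiLCs. For mESCs with EpiSCs r was -0.20, and for EpiLCs with EpiSCs -0.14. With so few libraries these values cannot tell whether equal numbers stand for a shared culture or batch. With a replicate block the calls were 9 between EpiLCs and mESCs, 14 between EpiSCs and mESCs and 14 between EpiSCs and EpiLCs, and 8, 13 and 14 without it in the same libraries.

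Promoters with both marks numbered 0 by the z-scores first fixed, 43 with mean and SD without the highest promoters, 33 with H3K4me3 over the housekeeping mean, 40 within 2500 bp, 33 within 1000 bp, 43 at the start with most H3K4me3, 43 with both trimmed z-scores over 0, 42 with both untrimmed z-scores over 0, and 30 with both marks in the top 10% of promoters. Low methylation was called at 36 to 44 genes. Cells with 3 counts or more of these genes numbered 59, against 107 with 1. One file per mark, no methylation coverage and 2 libraries in most groups limit what can be compared.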
